A study of Mus musculus with 21 samples.

Results

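Axon guidance molecules formed the set described here: the secreted and membrane-bound ligands and their receptors of the semaphorin, Eph, Slit and netrin systems. Members were all genes of the count table whose symbols name a class 3 to 7 semaphorin, a plexin, an Eph receptor, an ephrin, a Slit, a Robo, an Unc5 or a netrin numbered after Ntn. This gave 66 of the 24984 genes in the table, 35 of them ligands (semaphorins, ephrins, Slits and netrins) and 31 receptors (plexins, Eph receptors, Robos and Unc5 receptors). Of these, 63 had enough reads to be tested. The endothelial receptor gene Robo4, the Eph receptor gene Epha1 and the semaphorin gene Sema3g did not pass. They had no more than 0.0867 CPM (counts per 1e+06 counts in genes, with library totals scaled by TMM) in any of 20 libraries.

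Nascent RNA was measured with BrU-seq in cortical cells of CD1 mice kept in culture for 17 days. Cells take up bromouridine into the RNA they are making, so that the sequenced reads report transcription over the labelling time rather than the RNA already present. Cultures were given DMSO, the solvent, or 25 µM MM401 for 30 min, then 40 µM bicuculline or water, and 2 mM bromouridine for the last 30 min. MM401 keeps the histone methyltransferase MLL1, the product of Kmt2a, from binding its partner WDR5. Bicuculline is an antagonist of GABA-A receptors, so that inhibition falls and the neurons fire more. The groups were DMSO with water at 4 h, DMSO with bicuculline at 1 h and at 4 h, MM401 with water at 1 h and at 4 h, and MM401 with bicuculline at 1 h and at 4 h. Each had 3 libraries, but 1 library of MM401 with water at 4 h was left out because it held 316741 counts. Both DMSO responses were taken against water at 4 h, so they share their controls and the 1 h response also differs from its control in time. Each MM401 response had water of its own time. The drug was given to whole cultures and was not restricted to a cell type. The labels do not say what a replicate number stands for, so the p-values measure only the spread between these libraries.

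Guidance cues steer growing axons by attracting or repelling the growth cone, and in mature cortex many of them act on dendritic spines and synapses. Secreted class 3 semaphorins signal through plexins held with neuropilins, whereas the other vertebrate semaphorins are membrane-bound and mostly bind plexins directly. Slits bind Robo receptors, netrin-1 is repellent through Unc5 receptors, and ephrins bind Eph receptor tyrosine kinases on neighbouring cells, with signals running into both cells. Type A ephrins are tethered by a lipid anchor and type B ephrins span the membrane. Slit2 and Slit3 each carry a copy of the microRNA gene of miR-218 in an intron on the same strand.

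The upstream promoter sequences of 6 members are printed. They are the genes with a single promoter in the table that rose (Efnb2, Sema3c and Slit2) or fell (Unc5a, Epha8 and Sema7a) in all 4 comparisons of bicuculline with water below and whose smallest change was the largest. Each is the 250 bases before the start site given by RefSeq on GRCm38.p6, 5′ to 3′ on the strand of the gene. Capitals mark a match, on either strand, to a motif of factors that neuronal activity is known to engage. The motifs searched were the CRE (TGACGTCA), its core TGACG (which also lies inside the CRE), the AP-1 site (TGANTCA), the EGR site (GCGNGGGCG) and the CArG box. Efnb2 lies at chr8:8661243-8661492 on the minus strand, Sema3c at chr5:17574566-17574815 on the plus strand and Slit2 at chr5:47982905-47983154 on the plus strand.
Efnb2: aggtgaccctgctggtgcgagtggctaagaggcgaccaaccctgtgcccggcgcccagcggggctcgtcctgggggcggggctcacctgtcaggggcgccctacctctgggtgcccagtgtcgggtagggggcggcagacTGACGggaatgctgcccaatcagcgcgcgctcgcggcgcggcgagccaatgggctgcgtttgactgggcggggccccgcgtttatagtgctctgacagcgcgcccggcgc
Sema3c: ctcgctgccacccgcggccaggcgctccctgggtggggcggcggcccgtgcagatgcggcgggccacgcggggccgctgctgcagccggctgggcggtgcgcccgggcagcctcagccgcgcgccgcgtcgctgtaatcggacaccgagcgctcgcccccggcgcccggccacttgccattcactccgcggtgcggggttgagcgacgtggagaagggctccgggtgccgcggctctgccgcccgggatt
Slit2: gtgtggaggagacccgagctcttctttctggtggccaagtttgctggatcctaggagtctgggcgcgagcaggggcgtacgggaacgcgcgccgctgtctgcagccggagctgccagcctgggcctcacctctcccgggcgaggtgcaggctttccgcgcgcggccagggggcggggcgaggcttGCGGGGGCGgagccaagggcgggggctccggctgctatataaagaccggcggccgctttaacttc
Unc5a lies at chr13:54949161-54949410 on the plus strand, Epha8 at chr4:136956817-136957066 on the minus strand and Sema7a at chr9:57939862-57940111 on the plus strand.
Unc5a: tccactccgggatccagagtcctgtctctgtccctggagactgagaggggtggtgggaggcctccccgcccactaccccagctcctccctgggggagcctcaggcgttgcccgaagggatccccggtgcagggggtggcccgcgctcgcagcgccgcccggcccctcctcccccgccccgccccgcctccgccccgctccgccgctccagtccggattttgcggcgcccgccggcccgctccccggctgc
Epha8: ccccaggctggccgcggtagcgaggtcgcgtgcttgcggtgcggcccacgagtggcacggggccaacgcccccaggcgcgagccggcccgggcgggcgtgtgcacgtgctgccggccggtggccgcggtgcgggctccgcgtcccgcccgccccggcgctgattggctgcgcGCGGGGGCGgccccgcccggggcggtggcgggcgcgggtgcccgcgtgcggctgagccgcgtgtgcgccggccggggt
Sema7a: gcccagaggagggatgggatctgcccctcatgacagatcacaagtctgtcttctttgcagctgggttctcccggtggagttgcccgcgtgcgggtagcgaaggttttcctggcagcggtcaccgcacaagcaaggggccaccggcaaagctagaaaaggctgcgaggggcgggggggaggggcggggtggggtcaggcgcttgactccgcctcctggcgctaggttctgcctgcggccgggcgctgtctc

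The same EGR site letters stood in the promoter of Slit2, at -65 to -57 from the start site, and in that of Epha8, at -78 to -70, although these genes responded in opposite directions. The Efnb2 promoter held the TGACG core at -110 to -106. Its start site in RefSeq is chr8:8661242, whereas Efnb2 as counted starts at chr8:8660773. The other 3 printed promoters held none of the motifs, which says only that these letters are absent from these windows. Of all 32851 promoter windows in the table, 4.70% held the EGR site, 17.8% the TGACG core, 6.75% the AP-1 site, 1.55% the full CRE and 1.47% the CArG box. In the 73 windows that the table holds for 57 members the shares were 16.4%, 9.59%, 4.11%, 1.37% and 2.74%. The median GC content was 64.4% for the members' windows and 52.4% for all windows.

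The microRNA copies in Slit2 and Slit3 are shown because the host genes moved apart between 1 h and 4 h of bicuculline. Their mature 5′ arms are identical, so the miR-218-5p made from either gene cannot be told apart by sequence, while the 3′ arms differ. Seeds (bases 2 to 8) are in capitals, and the sequences are those of RefSeq on GRCm38.p6. The 5′ arm lies at chr5:48223966-48223986 in Slit2 and at chr11:35616840-35616860 in Slit3, both on the plus strand.
mmu-miR-218-5p: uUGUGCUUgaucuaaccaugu
mmu-miR-218-1-3p, from Slit2: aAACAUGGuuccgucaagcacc
mmu-miR-218-2-3p, from Slit3: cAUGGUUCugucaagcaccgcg
Mature microRNAs were not measured in these libraries, and only the nascent counts of the host genes are reported.

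The 20 libraries held between 49886348 and 87939384 counts in genes, of which the members took 0.911% to 1.17%. The activity-induced genes Fos, Npas4 and Bdnf had log2 fold changes of 2.66, 4.43 and 2.18 in DMSO with bicuculline at 1 h, and of 1.18, 3.43 and 2.66 at 4 h (edgeR's quasi-likelihood test, adjusted p of at most 2.57e-05). Kmt2a differed by 0.19 at 1 h (adjusted p = 0.0327) and by 0.10 at 4 h (adjusted p = 0.264). Of the cell type markers, 8 neuronal genes summed to 2875 to 3327 CPM in DMSO with water and 4778 to 4929 CPM in DMSO with bicuculline at 4 h. Of these 8, 5 were higher at 4 h, with Map2 and Snap25 making up most of the sum (log2 changes of 0.60 and 1.05), and Rbfox3 and Tubb3 were lower (-0.57 and -0.42). The 6 astrocyte genes summed to 1111 to 1579 and 1307 to 1435 CPM, the 7 oligodendrocyte-lineage genes to 160 to 187 and 194 to 209 CPM, and the 6 microglial genes to 26.1 to 30.2 and 31.1 to 36.8 CPM in the same groups. Under MM401 the neuronal sum was 3051 to 3141 CPM with water and 4017 to 4542 CPM with bicuculline at 1 h, and 3322 to 3340.2 and 4313 to 4644 CPM at 4 h. The astrocyte sum under MM401 was 1068 to 1327 and 1559 to 1633 CPM at 1 h, and 1079.5 to 1192 and 1299 to 1375 CPM at 4 h. Neuronal and oligodendrocyte-lineage sums did not overlap between bicuculline and water in any of the 4 comparisons, astrocyte sums overlapped in DMSO and not under MM401, microglial sums overlapped at 1 h and not at 4 h, and endothelial and mural sums overlapped only under MM401 at 4 h. The 4 endothelial and mural genes stayed at no more than 5.40 CPM in the DMSO groups, the 4 fibroblast genes at no more than 4.23 CPM, and no marker was at 0 in every library of a group. Fewer cells of a type and less nascent RNA per cell cannot be told apart in these bulk cultures, and the part of these shifts in the members' results was not tested.

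Bicuculline changed guidance genes in both directions. In DMSO at 4 h, 47 of 63 tested members passed the adjusted p of 0.05, 30 higher and 17 lower, where 49.2% of all 16959 tested genes did (23.7% higher and 25.5% lower). Receptors passed in 24 of 29 cases (17 higher, 7 lower) and ligands in 23 of 34 (13 higher, 10 lower). At 1 h in DMSO, 27 members passed (15 higher, 12 lower), against 44.6% of all genes (3396 higher and 4161 lower). Under MM401, 34 members passed at 1 h (19 higher, 15 lower), against 39.9% of all genes (18.1% and 21.8%), and 35 at 4 h (17 higher, 18 lower), against 44.6% (23.0% and 21.7%). The share of members that passed thus lay near that of all genes at 1 h in DMSO, where the median member changed by 0.07 on the log2 scale and the median gene by -0.04. The heat map gives every tested member in these comparisons.

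**Figure D1:**
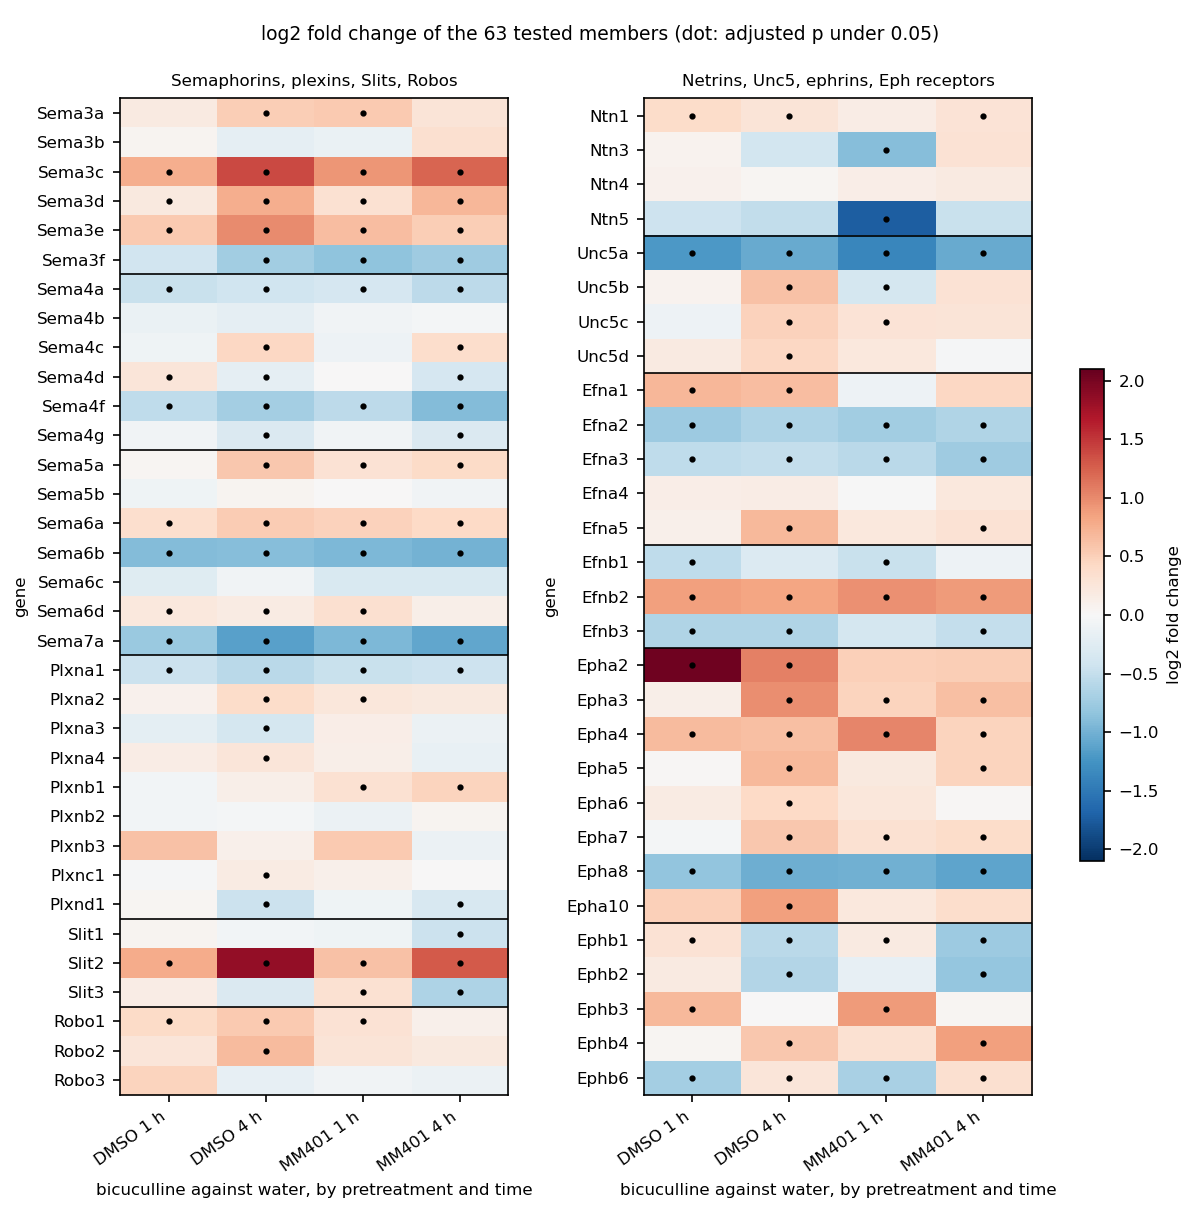
Log2 fold change of bicuculline against water for the 63 tested members (rows, grouped by family with lines between families) in 4 comparisons (columns). Red is higher and blue lower with bicuculline, and a dot marks an adjusted p under 0.05; Slit2, Sema3c and Efnb2 are red and Unc5a, Sema7a, Epha8 and Sema6b blue in each column.

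These splits depended on how libraries were scaled. The values given use TMM scaling, which assumes that most genes do not change. With plain library totals the median of all genes moved to -0.23 at 1 h and -0.30 at 4 h in DMSO and to -0.21 at 1 h under MM401, and the members' splits became 9 higher and 21 lower, 18 and 25, and 10 and 21. Those were 14.3% and 33.3%, 28.6% and 39.7%, and 15.9% and 33.3% of the tested members, where 10.8% and 40.2%, 10.7% and 46.4%, and 7.52% and 38.6% of all genes were higher and lower. Under MM401 at 4 h the split with plain totals was 15 and 19 (23.8% and 30.2%, all genes 16.5% and 24.4%). With the trend of counts on gene length removed, the splits were 11 higher and 18 lower at 1 h in DMSO (17.5% and 28.6%, all genes 19.7% and 21.5%) and 11 and 15 at 1 h under MM401 (17.5% and 23.8%, all genes 2942 and 3398 of 16959). At 4 h they were 25 and 17 in DMSO (39.7% and 27.0%, all genes 23.1% and 23.7%) and 21 and 17 under MM401 (33.3% and 27.0%, all genes 22.9% and 24.3%). With the shallow library included they were 10 and 12 at 1 h in DMSO (16.1% and 19.4%, all genes 15.2% and 15.9%) and 9 and 11 at 1 h under MM401 (14.5% and 17.7%, all genes 12.3% and 15.1%). At 4 h they were 20 and 14 in DMSO (32.3% and 22.6%, all genes 17.1% and 21.1%) and 14 and 15 under MM401 (22.6% and 24.2%, all genes 17.8% and 17.3%). No member called under TMM was called in the opposite direction under any of these, but some calls were lost. With plain library totals these were 6 of 27 (Efna1, Ephb1, Ntn1, Sema3d, Sema4d and Sema6d) at 1 h and 12 of 47 (Efna1, Epha2, Epha6, Ephb4, Ephb6, Ntn1, Plxna2, Plxna4, Plxnc1, Sema4c, Sema6d and Unc5d) at 4 h in DMSO. The length correction lost 6 of 27 (Efnb1, Ephb1, Ntn1, Sema3d, Sema4d and Sema6d) at 1 h and 8 of 47 (Efna2, Ntn1, Plxna3, Plxna4, Plxnc1, Sema4g, Sema6d and Unc5d) at 4 h in DMSO. Under MM401 at 1 h plain totals lost 9 of 34 (Epha7, Ephb1, Plxna2, Plxnb1, Robo1, Sema3d, Sema5a, Slit3 and Unc5c), and the length correction 11 of 34 (Efnb1, Epha7, Ephb1, Plxna2, Robo1, Sema3d, Sema4a, Sema5a, Sema6d, Slit3 and Unc5c). Under MM401 at 4 h plain totals lost 3 of 35 (Ephb6, Ntn1 and Sema4c), and the length correction 1 of 35 (Sema4g). Including the shallow library lost 5 of 27 (Efna1, Ntn1, Robo1, Sema6a and Sema6d) at 1 h and 13 of 47 (Efna1, Ephb6, Ntn1, Plxna2, Plxna3, Plxna4, Plxnc1, Sema4d, Sema4g, Sema6a, Sema6d, Unc5c and Unc5d) at 4 h in DMSO. Under MM401 it lost 13 of 34 (Efnb1, Epha3, Epha7, Ephb1, Plxna2, Plxnb1, Robo1, Sema4a, Sema5a, Sema6a, Slit3, Unc5b and Unc5c) at 1 h and 6 of 35 (Efna5, Ephb6, Ntn1, Plxna1, Sema4g and Slit3) at 4 h.

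The responses of the 2 pretreatments share no library. At 4 h, 16 members were higher in both (25.4% of those tested), against 16.8% of all genes. They were 53.3% of the 30 higher in DMSO and 94.1% of the 17 higher under MM401, where the same shares over all genes were 70.9% and 73.0%. Another 16 were lower in both (25.4%), against 16.7% of all genes. They were 94.1% of the 17 lower in DMSO and 88.9% of the 18 lower under MM401, where all genes gave 65.6% and 77.3%. At 1 h, 11 members were higher in both and 11 were lower in both (17.5% each), against 13.2% and 17.3% of all genes. No member was called in opposite directions in the pretreatments at either time, against 0.0649% of all genes at 4 h and 0.265% at 1 h.

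Among the ligands, the Slits diverged at 4 h. Slit2, a secreted repellent that acts through Robo1 and Robo2 (324.6 kb, chr5:47983154-48307736), had 213, 149 and 132 CPM in DMSO with water, 291, 266 and 286 CPM with bicuculline at 1 h, and 595, 629.6 and 554 CPM at 4 h. All libraries with bicuculline exceeded all libraries with water, and the 4 h libraries exceeded the 1 h libraries. The log2 fold change was 0.77 ± 0.15 (SE) at 1 h (adjusted p = 0.000387) and 1.85 ± 0.15 at 4 h (adjusted p = 1.89e-08), the largest change among the 63 tested members at 4 h. Under MM401, Slit2 had 209, 175 and 189 CPM with water and 299, 340.0 and 243 CPM with bicuculline at 1 h, and 206 and 208 CPM with water and 532, 557 and 433 CPM with bicuculline at 4 h. Those groups did not overlap either, and the changes were 0.62 ± 0.15 and 1.29 ± 0.17 (adjusted p = 0.00256 and 9.97e-06). Slit2 overlaps Mir218-1 on the same strand, so reads of the microRNA precursor can count toward it.

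Slit3, a related secreted ligand and host of the other miR-218 copy, ran the other way over time. It had 478, 568 and 614 CPM in DMSO with bicuculline at 1 h and 368, 415 and 417 CPM at 4 h, and it fell by 0.47 ± 0.13 on the log2 scale (adjusted p = 0.00685). The lowest library at 1 h lay above the highest at 4 h, though the call was lost when the shallow library was included. Under MM401 Slit3 went from 703, 643 and 497 CPM to 349.9, 368 and 318 CPM (-0.83 ± 0.13, adjusted p = 4.17e-05), again without overlap. At 1 h the Slit3 estimates, like those of Slit2, were above 0. Slit3 had 599.6, 455 and 429.8 CPM in DMSO with water, which overlapped with 1 h of bicuculline (0.16 ± 0.13, adjusted p = 0.319), and 525, 498 and 445 CPM under MM401 with water at 1 h. The MM401 groups overlapped too, and Slit3 was called higher there (0.33 ± 0.13, adjusted p = 0.0462). That call was lost with plain library totals (0.11), with the length correction (0.05), with the shallow library and without replicate 1 or 2 of MM401 with bicuculline at 1 h or replicate 2 or 3 of MM401 with water at 1 h. Against water at 4 h Slit3 gave -0.31 ± 0.13 in DMSO (adjusted p = 0.0521) and -0.65 ± 0.14 under MM401 (adjusted p = 0.000919), the last a call also lost with the shallow library. Slit1, the third Slit, had 60.0, 47.3 and 44.8 CPM in DMSO with water and 47.9, 48.1 and 50.7 CPM with bicuculline at 4 h. These groups overlapped, and the difference was -0.05 ± 0.10 (adjusted p = 0.711, 95% interval -0.26 to 0.16). Under MM401 Slit1 fell by 0.45 ± 0.11 at 4 h (adjusted p = 0.00258).

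Class 3 semaphorins, the secreted ones, mostly rose in DMSO at 4 h. Of 6 tested, 4 were higher (Sema3a, Sema3c, Sema3d and Sema3e) and 1 lower (Sema3f), where 23.7% and 25.5% of all genes were. This split of calls was also 4 and 1 with RLE scaling, plain library totals and the length correction. In DMSO at 1 h, 3 were higher and 0 lower, where 3396 and 4161 of all 16959 genes were. With plain library totals that 1 h split was 2 and 1 (all genes 10.8% and 40.2%). Under MM401, 4 were higher and 1 lower at 1 h (all genes 18.1% and 21.8%), and 3 and 1 at 4 h (23.0% and 21.7%). Sema3c, which signals through plexins with neuropilins, had 18.8, 16.3 and 16.4 CPM in DMSO with water, 29.8, 25.3 and 32.3 CPM with bicuculline at 1 h, and 46.6, 44.0 and 43.3 CPM at 4 h. The 3 groups did not overlap, and the changes against water were 0.76 ± 0.08 and 1.38 ± 0.08 (adjusted p = 1.59e-07 and 1.12e-11). Under MM401 the changes were 0.93 ± 0.08 at 1 h and 1.22 ± 0.09 at 4 h (adjusted p = 9.22e-09 and 1.94e-09). Sema3e, a ligand of plexin-D1, had 127, 102 and 93.4 CPM in DMSO with water and 221, 214 and 208 CPM with bicuculline at 4 h, which did not overlap (1.00 ± 0.10, adjusted p = 1.19e-07). Under MM401 at 4 h it had 119 and 138 CPM with water and 187, 193 and 170.2 CPM with bicuculline (0.51 ± 0.12, adjusted p = 0.00131), a call that was lost without replicate 1 of that water group. Sema3d rose by 0.77 ± 0.07 in DMSO and by 0.69 ± 0.08 under MM401 at 4 h, and Sema3a rose by 0.52 ± 0.12 in DMSO. Sema3f, a repellent that acts through neuropilin-2, had 2.41, 1.67 and 2.18 CPM in DMSO with water and 1.24, 1.20 and 1.30 CPM with bicuculline at 4 h (-0.73 ± 0.18, adjusted p = 0.00155). Sema3b, at 0.405, 0.352 and 0.239 CPM with water, gave -0.19 ± 0.33 (adjusted p = 0.670).

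The membrane-bound semaphorins moved in both directions. Sema7a, the lipid-anchored member, had 11.2, 10.9 and 11.8 CPM in DMSO with water, 7.03, 6.67 and 6.09 CPM with bicuculline at 1 h and 4.99, 4.84 and 5.52 CPM at 4 h. The groups did not overlap, with changes of -0.77 ± 0.09 and -1.14 ± 0.09 (adjusted p = 4.24e-07 and 9.64e-10). Under MM401 Sema7a changed by -0.94 ± 0.09 and -1.09 ± 0.10 (adjusted p = 2.99e-08 and 1.57e-08). Sema6b, a transmembrane ligand of class A plexins, had 8.49, 8.53 and 7.01 CPM in DMSO with water, 4.09, 4.26 and 4.37 CPM at 1 h and 4.07, 4.32 and 4.51 CPM at 4 h. Both bicuculline groups lay below water (-0.92 ± 0.11 and -0.89 ± 0.11, adjusted p = 7.47e-07 and 6.58e-07), and the difference between 4 h and 1 h was 0.02 ± 0.11 (95% interval -0.21 to 0.26).

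Sema6a, another transmembrane ligand of class A plexins, was higher where Sema6b was lower. It had 255, 239 and 243 CPM in DMSO with water and 349, 378 and 343 CPM with bicuculline at 4 h, without overlap (0.54 ± 0.06, adjusted p = 2.61e-07). That Sema6a call was lost with the shallow library. Sema5a rose by 0.57 ± 0.06 in DMSO at 4 h (adjusted p = 8.40e-08), while Sema5b gave 0.05 ± 0.08 (adjusted p = 0.652). Among class 4 semaphorins, Sema4f went from 15.5, 13.1 and 11.9 CPM in DMSO with water to 7.78, 8.21 and 8.67 CPM with bicuculline at 4 h (-0.71 ± 0.10, adjusted p = 3.63e-06). Sema4a and Sema4g also fell (-0.42 and -0.31), Sema4c rose (0.44) and Sema4b gave -0.19 (adjusted p = 0.106). With plain library totals the Sema4c call was lost (0.16), and the Sema4g call was lost with the length correction (-0.18), with the shallow library and without replicate 1 or 3 of DMSO with bicuculline at 4 h or replicate 1 or 2 of DMSO with water. Sema4d, the ligand of plexin-B1, was higher at 1 h (0.25 ± 0.07, adjusted p = 0.00776) and lower at 4 h (-0.19 ± 0.07, adjusted p = 0.0342) against the same water libraries. The 1 h call of Sema4d was lost with plain library totals (0.06) and with the length correction (0.12). Its 4 h call was lost with RLE scaling (-0.17), with DESeq2, with the shallow library and without replicate 1 or 2 of DMSO with bicuculline at 4 h or replicate 3 of DMSO with water. Sema6c gave -0.07 at 4 h (adjusted p = 0.709). Sema6d gave 0.17 ± 0.06 (adjusted p = 0.0344), which turned to -0.10 with plain library totals and to -0.11 with the length correction.

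**Figure D2:**
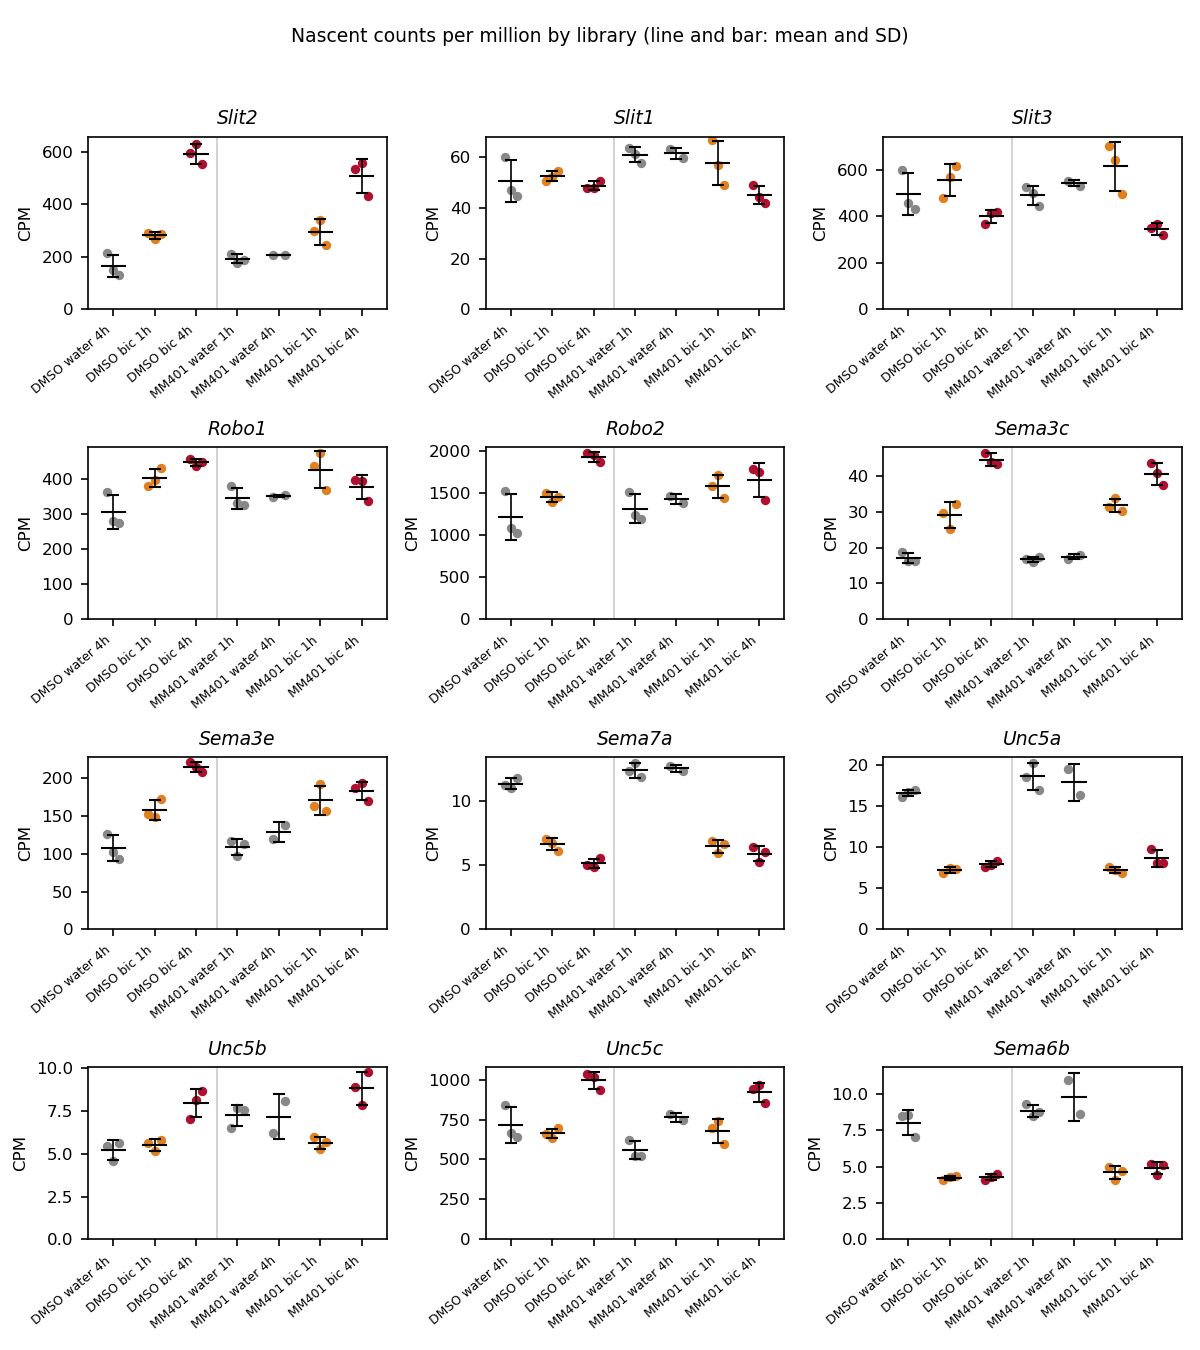
CPM (vertical axes, starting at 0) of 12 Slit, Robo, semaphorin and Unc5 members in each library (points), by group (horizontal axis), with the mean and SD of each group. Grey is water, orange bicuculline at 1 h and red bicuculline at 4 h; Slit2 climbs to 554 to 630 CPM in DMSO at 4 h where Slit1 lies between 47.9 and 50.7 CPM.

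Among the ephrins, Efnb2 rose at both times. This transmembrane ligand of EphB receptors and EphA4 had 131, 137 and 147 CPM in DMSO with water, 247, 248 and 256 CPM with bicuculline at 1 h and 263, 239.9 and 231 CPM at 4 h. The libraries with bicuculline all exceeded those with water, and the 1 h and 4 h libraries overlapped. The changes were 0.85 ± 0.07 and 0.82 ± 0.07 (adjusted p = 1.56e-09 and 1.87e-09), and under MM401 0.96 ± 0.07 and 0.90 ± 0.08 (adjusted p = 2.55e-10 and 7.73e-09). In DMSO with water Efnb2 also had the highest level per gene length of the 66 members, 3.19 ± 0.18 CPM per kb (SD, n = 3), ahead of Plxna2 at 2.29 ± 0.16 and Epha5 at 2.12 ± 0.29 CPM per kb, whose ranges overlapped each other. Efnb1 and Efnb3 had 3.92, 2.28 and 3.45 CPM and 3.33, 2.94 and 3.20 CPM in DMSO with water. Efnb3 fell by 0.62 ± 0.15 at 1 h and by 0.63 ± 0.15 at 4 h, whereas Efnb1 fell by 0.54 ± 0.16 at 1 h and gave -0.29 ± 0.16 at 4 h (adjusted p = 0.126). The Efnb1 call at 1 h was lost with the length correction (-0.39) and without replicate 1 of DMSO with water.

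Of the lipid-anchored type A ephrins, Efna5 had 239, 188 and 179 CPM in DMSO with water, 212, 215 and 223 CPM with bicuculline at 1 h and 325, 336 and 314 CPM at 4 h. The 1 h group overlapped with water and the 4 h group did not. The changes were 0.10 ± 0.09 (adjusted p = 0.400) and 0.69 ± 0.10 (adjusted p = 3.71e-06). Efna3 went from 3.57, 3.93 and 4.58 CPM to 3.32, 2.81 and 2.47 CPM at 4 h (-0.50 ± 0.12, adjusted p = 0.00173), and Efna2 from 1.25, 1.38 and 1.66 CPM to 1.03, 0.761 and 0.976 CPM (-0.64 ± 0.20, adjusted p = 0.0110). The Efna2 call at 4 h was lost with the length correction, without replicate 2 of DMSO with bicuculline at 4 h and without replicate 3 of DMSO with water. Efna1, below 1 CPM in every library, gave 0.65 ± 0.23 at 4 h (adjusted p = 0.0223), a call lost with plain library totals and without replicate 3 of DMSO with bicuculline at 4 h or replicate 1, 2 or 3 of DMSO with water, and Efna4 gave 0.15 ± 0.25 (adjusted p = 0.658).

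Among the netrins, Ntn1, the secreted ligand of Dcc and Unc5 receptors, had 31.5, 33.4 and 36.6 CPM in DMSO with water and 43.4, 45.6 and 42.8 CPM with bicuculline at 1 h, without overlap (0.38 ± 0.07, adjusted p = 0.000153). The 1 h call was lost with plain library totals (0.18), with the length correction (0.18) and with the shallow library. Its 4 h value of 0.27 ± 0.07 (adjusted p = 0.00252) turned to -0.00423 with plain library totals. Ntn4 gave 0.05 ± 0.07 at 4 h (adjusted p = 0.633). Ntn3 and Ntn5, which overlap other genes, had at most 1.39 and 0.166 CPM in any library and were lower under MM401 at 1 h (-0.90 and -1.73), the last a call lost without replicate 2 of MM401 with bicuculline at 1 h.

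Among the receptors, 7 of 8 tested type A Eph receptors were higher in DMSO at 4 h and 1 was lower (median change 0.66). Of all genes 23.7% were higher and 25.5% lower. With plain library totals 5 type A receptors were higher and 1 lower (median 0.39), where 10.7% and 46.4% of all genes were. Under MM401 at 4 h, 4 type A receptors were higher and 1 lower (median 0.42), where 23.0% and 21.7% of all genes were. There Epha2, Epha6 and Epha10 gave 0.51 ± 0.35, 0.02 ± 0.13 and 0.37 ± 0.24 (adjusted p = 0.254, 0.914 and 0.225). Epha4, which binds ephrins of both types and is known to restrain dendritic spines, rose early. It had 297, 264 and 267 CPM in DMSO with water, 378, 434 and 497 CPM with bicuculline at 1 h and 449, 407 and 427 CPM at 4 h. All libraries with bicuculline lay above those with water, and the changes were 0.66 ± 0.10 and 0.63 ± 0.10 (adjusted p = 9.12e-06 and 1.14e-05). Under MM401 Epha4 had 238, 238 and 237 CPM with water and 518, 539 and 396 CPM with bicuculline at 1 h (1.03 ± 0.10, adjusted p = 2.17e-08), and the change at 4 h was 0.47 ± 0.11 (adjusted p = 0.00121).

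Epha3 moved later, with 228, 182 and 173 CPM in DMSO with water, 211, 194 and 227 CPM at 1 h and 405, 364 and 373 CPM at 4 h. Its 1 h group overlapped with water (0.12 ± 0.09, adjusted p = 0.330) and its 4 h group did not (0.97 ± 0.09, adjusted p = 2.74e-08). Epha5 and Epha7 gave 0.02 and -0.04 at 1 h, which did not pass, and rose by 0.69 and 0.57 at 4 h. Epha6 rose by 0.42 ± 0.12 at 4 h (adjusted p = 0.00571), a call lost with plain library totals (0.15) and without replicate 2 or 3 of DMSO with water. Epha8, at 3.91, 3.24 and 3.58 CPM in DMSO with water, went down to 2.09, 2.12 and 1.77 CPM at 1 h and to 1.38, 1.95 and 1.87 CPM at 4 h, without overlap with water (-0.83 ± 0.15 and -1.03 ± 0.15, adjusted p = 7.87e-05 and 4.57e-06). Epha2 had the largest log2 fold change of the 63 members at 1 h in DMSO (2.05 ± 0.32, adjusted p = 2.05e-05), from 0.166, 0.282 and 0.332 CPM to 1.29, 1.24 and 0.749 CPM. Under MM401 its water libraries at 1 h had 0.663, 0.623 and 0.505 CPM and the change was 0.50 ± 0.30 (adjusted p = 0.193). Epha10, which overlaps a gene on the opposite strand, had 20.4, 14.5 and 9.81 CPM in DMSO with water and 23.7, 31.5 and 25.5 CPM with bicuculline at 4 h (0.86 ± 0.21, adjusted p = 0.00331).

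Type B Eph receptors differed from each other in time course. Ephb1 had 113, 96.2 and 98.9 CPM in DMSO with water, 114, 129 and 138 CPM with bicuculline at 1 h and 70.5, 67.9 and 70.2 CPM at 4 h. It was higher at 1 h (0.31 ± 0.07, adjusted p = 0.00188) and lower at 4 h (-0.56 ± 0.07, adjusted p = 1.76e-06). The 1 h call of Ephb1 was lost with plain library totals (0.12) and with the length correction (0.04), and the 4 h call in none of the alternatives. Ephb2, a receptor that binds NMDA receptors at synapses, had 38.5, 33.4 and 36.4 CPM with water, 40.8, 42.3 and 40.8 CPM at 1 h and 25.1, 21.6 and 24.1 CPM at 4 h. Its change passed at 4 h (-0.61 ± 0.10, adjusted p = 3.96e-05) and not at 1 h (0.20 ± 0.10, adjusted p = 0.116). Ephb3 had 9.67, 9.45 and 10.4 CPM with water and rose to 15.1, 14.99 and 17.4 CPM at 1 h (0.69 ± 0.10, adjusted p = 5.37e-06), with 10.1, 8.91 and 10.6 CPM at 4 h (0.01 ± 0.10, adjusted p = 0.954). The 4 h libraries of Ephb3 overlapped with water and lay below all 1 h libraries.

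Ephb6, a receptor without kinase activity, had 14.4, 14.9 and 14.1 CPM with water, 9.68, 9.37 and 7.45 CPM at 1 h and 18.1, 17.3 and 16.4 CPM at 4 h. It fell by 0.71 ± 0.09 at 1 h (adjusted p = 1.57e-06). At 4 h it lay 0.26 ± 0.09 above water (adjusted p = 0.0189), a value that turned to -0.02 with plain library totals. Ephb4 had 2.89, 3.28 and 3.98 CPM with water, 2.74, 3.85 and 3.94 CPM at 1 h and 4.33, 4.83 and 5.95 CPM at 4 h, where it was higher by 0.57 ± 0.14 (adjusted p = 0.00214). The Ephb4 call at 4 h was lost with plain library totals (0.29), and that of Ephb6 also with the shallow library and without replicate 1 of DMSO with bicuculline at 4 h or replicate 3 of DMSO with water. From 1 h to 4 h of bicuculline, Ephb1, Ephb2 and Ephb3 fell in DMSO (-0.87, -0.81 and -0.68) and under MM401 (-0.995, -0.78 and -0.71). Ephb4 and Ephb6 rose in DMSO (0.53 and 0.96) and under MM401 (0.56 and 1.18). The adjusted p-values of these 10 changes were at most 0.00616 (edgeR's quasi-likelihood test). The Ephb4 change in DMSO was lost without replicate 1 of DMSO with bicuculline at 1 h or replicate 3 of DMSO with bicuculline at 4 h.

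**Figure D3:**
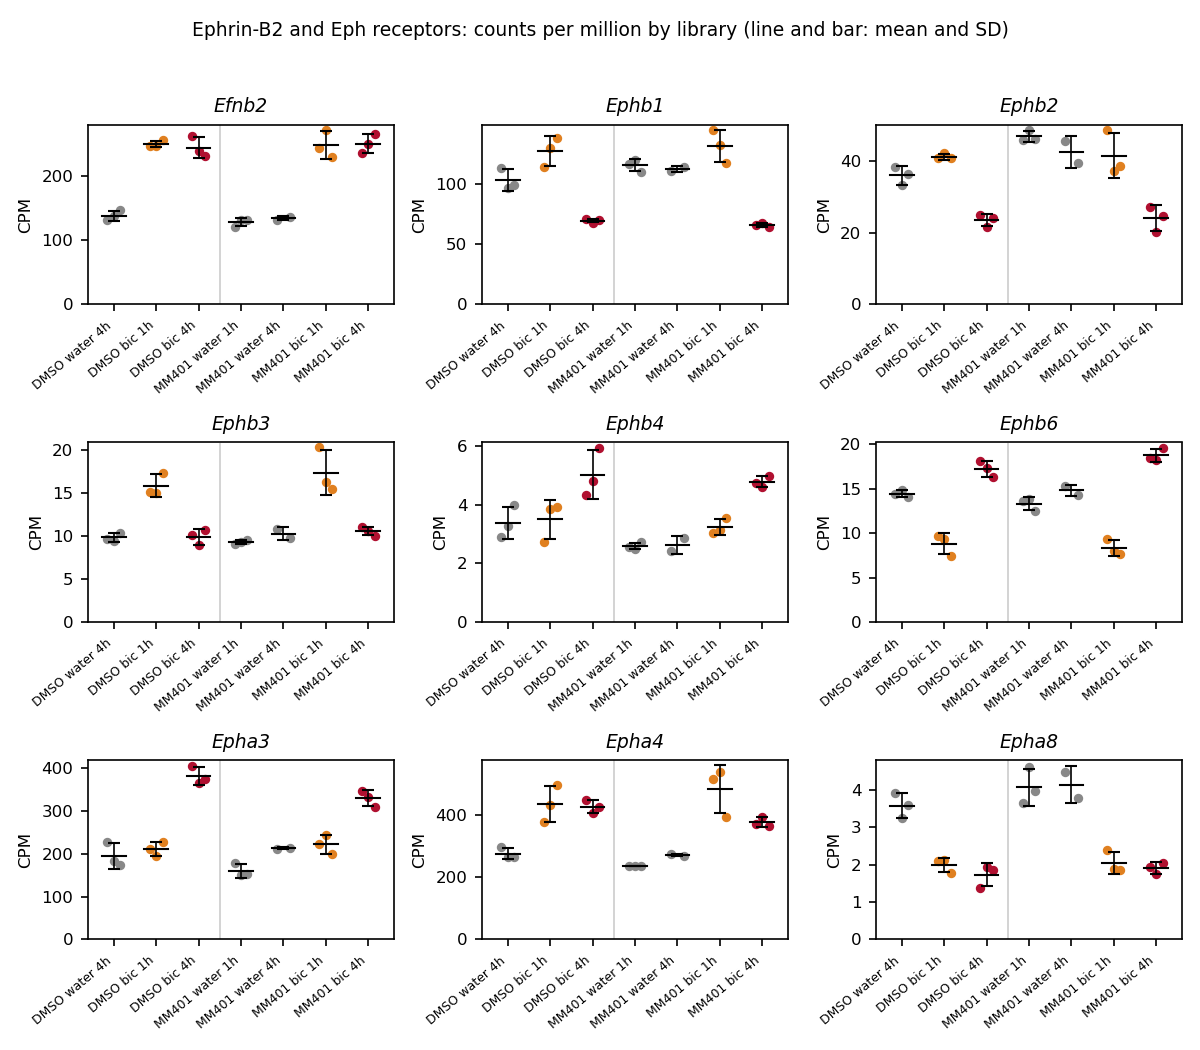
CPM (vertical axes, starting at 0) of ephrin-B2 and 8 Eph receptors in each library (points), by group (horizontal axis), with the mean and SD of each group. Ephb3 is high only with bicuculline at 1 h (14.99 to 20.3 CPM), Ephb6 is low there (7.45 to 9.68 CPM), and Ephb1 and Ephb2 are low with bicuculline at 4 h.

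The Slit receptors Robo1 and Robo2 were higher in DMSO at 4 h. Robo1 had 364, 282 and 276 CPM in DMSO with water and 457, 439 and 448 CPM with bicuculline at 4 h (0.55 ± 0.10, adjusted p = 0.000111). Robo2 had 1524, 1085 and 1027 CPM with water and 1975, 1951 and 1861 CPM at 4 h (0.67 ± 0.12, adjusted p = 0.000118). The groups did not overlap in either gene, and in both replicate 1 was the highest water library. Under MM401 at 4 h the differences were 0.10 ± 0.11 and 0.21 ± 0.14 (adjusted p = 0.485 and 0.224). Robo3, which had at most 0.685 CPM in a library, did not pass in any comparison of bicuculline with water.

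The Unc5 receptors of netrin-1 split in DMSO. Unc5a had 16.2, 16.7 and 16.9 CPM in DMSO with water, 6.81, 7.50 and 7.31 CPM with bicuculline at 1 h and 7.59, 7.90 and 8.31 CPM at 4 h. The highest library with bicuculline lay well under the lowest with water. The changes were -1.20 ± 0.09 and -1.07 ± 0.09 in DMSO and -1.37 ± 0.09 and -1.05 ± 0.10 under MM401 (adjusted p of at most 2.80e-08). Unc5a overlaps Hk3 on the opposite strand, and whether strand was used in counting is not given in the sources used here. Unc5b had 5.47, 4.57 and 5.63 CPM in DMSO with water and 7.06, 8.18 and 8.67 CPM with bicuculline at 4 h (0.61 ± 0.12, adjusted p = 0.000161). Unc5c had 842, 664 and 639 CPM with water, 656, 637 and 697 CPM at 1 h and 1033, 1018 and 933 CPM at 4 h (0.48 ± 0.10 at 4 h, adjusted p = 0.000430). In DMSO the 1 h groups of both genes overlapped with water and the 4 h groups did not. Unc5d gave 0.43 ± 0.14 at 4 h (adjusted p = 0.0184). The Unc5c call was lost with the shallow library. The Unc5d call was lost with plain library totals (0.17), the length correction (0.18), the shallow library and without replicate 2 of DMSO with bicuculline at 4 h or replicate 2 or 3 of DMSO with water. Under MM401 at 4 h Unc5b, Unc5c and Unc5d did not pass, with 0.30 ± 0.13, 0.27 ± 0.11 and -0.03 ± 0.16 (adjusted p = 0.0663, 0.0567 and 0.910). Under MM401 at 1 h Unc5b was lower (-0.36 ± 0.12, adjusted p = 0.0183) and Unc5c higher (0.28 ± 0.10, adjusted p = 0.0275). The Unc5b call was lost with the shallow library and without replicate 2 of MM401 with bicuculline at 1 h or replicate 2 or 3 of MM401 with water at 1 h. The Unc5c call was lost with plain library totals (0.07), the length correction (0.04), the shallow library and without replicate 1 or 2 of MM401 with bicuculline at 1 h or replicate 2 or 3 of MM401 with water at 1 h.

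Plexins, the semaphorin receptors, changed by small amounts. In DMSO at 4 h, 3 of 9 were higher and 3 lower, where 23.7% and 25.5% of all genes were. With plain library totals none was higher and 4 were lower, where 10.7% and 46.4% of all genes were. Plxna1 went from 31.9, 37.3 and 38.6 CPM to 24.2, 29.8 and 24.9 CPM at 1 h and to 22.9, 22.8 and 27.0 CPM at 4 h (-0.45 ± 0.09 and -0.57 ± 0.09, adjusted p = 0.000303 and 1.76e-05). Plxna2, a receptor for Sema6a, went from 488, 443 and 424 CPM to 621, 582 and 563 CPM at 4 h (0.38 ± 0.08, adjusted p = 0.000244). Plxnd1, the receptor of Sema3e, had 10.4, 10.9 and 11.1 CPM with water and 7.55, 7.17 and 8.97 CPM at 4 h (-0.45 ± 0.11, adjusted p = 0.00116), while Sema3e was higher in the same libraries. Plxna3 was lower (-0.37) and Plxna4 and Plxnc1 were higher (0.25 and 0.17), and the last pair turned to -0.01 and -0.11 with plain library totals. Plxnb1, Plxnb2 and Plxnb3 did not pass in DMSO, and Plxnb1 was higher under MM401 (0.32 at 1 h and 0.47 at 4 h). The Plxna2 call was lost with plain library totals (0.11) and the shallow library, and the Plxnb1 call at 1 h with plain library totals (0.11), the shallow library and without replicate 1 of MM401 with bicuculline at 1 h. The calls of Plxna3, Plxna4 and Plxnc1 were lost with the length correction and the shallow library. They were also lost without replicate 1 or 3 of DMSO with bicuculline at 4 h or replicate 1 or 2 of DMSO with water for Plxna3, without replicate 2 or 3 of DMSO with bicuculline at 4 h or replicate 2 or 3 of DMSO with water for Plxna4 and without replicate 3 of DMSO with bicuculline at 4 h or replicate 2 or 3 of DMSO with water for Plxnc1.

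Gene length went with the direction of these changes. In DMSO at 4 h, 22 of 28 members of at least 100 kb were higher and 2 were lower, with a median change of 0.50. Of the 35 shorter members tested, 8 were higher and 15 lower, with a median of -0.19. Among all tested genes of at least 100 kb, 50.1% were higher and 13.9% lower (median 0.23), and among shorter genes 19.4% were higher and 27.4% lower (median -0.06). At 1 h in DMSO, 10 long members (35.7%) were higher and none was lower, where 44.0% and 4.47% of all long genes were. Of the short members 5 were higher and 12 lower (14.3% and 34.3%), where 16.2% and 27.8% of all short genes were. Under MM401 at 1 h, 16 long members were higher and 0 lower (57.1% and 0%, all long genes 40.9% and 3.36%), and 3 short members were higher and 15 lower (8.57% and 42.9%, all short genes 14.4% and 24.8%). At 4 h, 12 long members were higher and 4 lower (42.9% and 14.3%, all long genes 32.1% and 24.9%), and 5 short members were higher and 14 lower (14.3% and 40.0%, all short genes 21.5% and 21.1%). Across the 63 tested members, Spearman's rank correlation of change with length was 0.42 and 0.45 in DMSO and 0.56 and 0.21 under MM401 at 1 h and 4 h, where all genes gave 0.32, 0.29, 0.16 and -0.03. These are descriptions, since members share libraries and depth. With the length trend removed, 17 long members were higher and 4 lower in DMSO at 4 h (60.7% and 14.3%, median 0.27), where 31.4% and 30.6% of all long genes were. Of the short members 8 were higher and 13 lower (22.9% and 37.1%, median -0.17), where 21.7% and 22.6% of all short genes were. At 1 h in DMSO the correction left 6 long members higher and 7 lower (21.4% and 25.0%, all long genes 20.3% and 22.8%). It left 5 short members higher and 11 lower (14.3% and 31.4%, all short genes 19.6% and 21.3%). Under MM401 it left 7 and 2 long members at 1 h (25.0% and 7.14%, all long genes 15.5% and 16.3%) and 16 and 4 at 4 h (57.1% and 14.3%, all long genes 32.2% and 30.7%). For short members it left 4 and 13 at 1 h (11.4% and 37.1%, all short genes 17.6% and 20.6%) and 5 and 13 at 4 h (14.3% and 37.1%, all short genes 21.4% and 23.3%). With that correction Slit2 and Sema3c changed by 1.62 and 1.17 at 4 h in DMSO, and Efnb2, Unc5a and Sema7a, which are under 100 kb, by 0.77, -1.16 and -1.09.

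**Figure D4:**
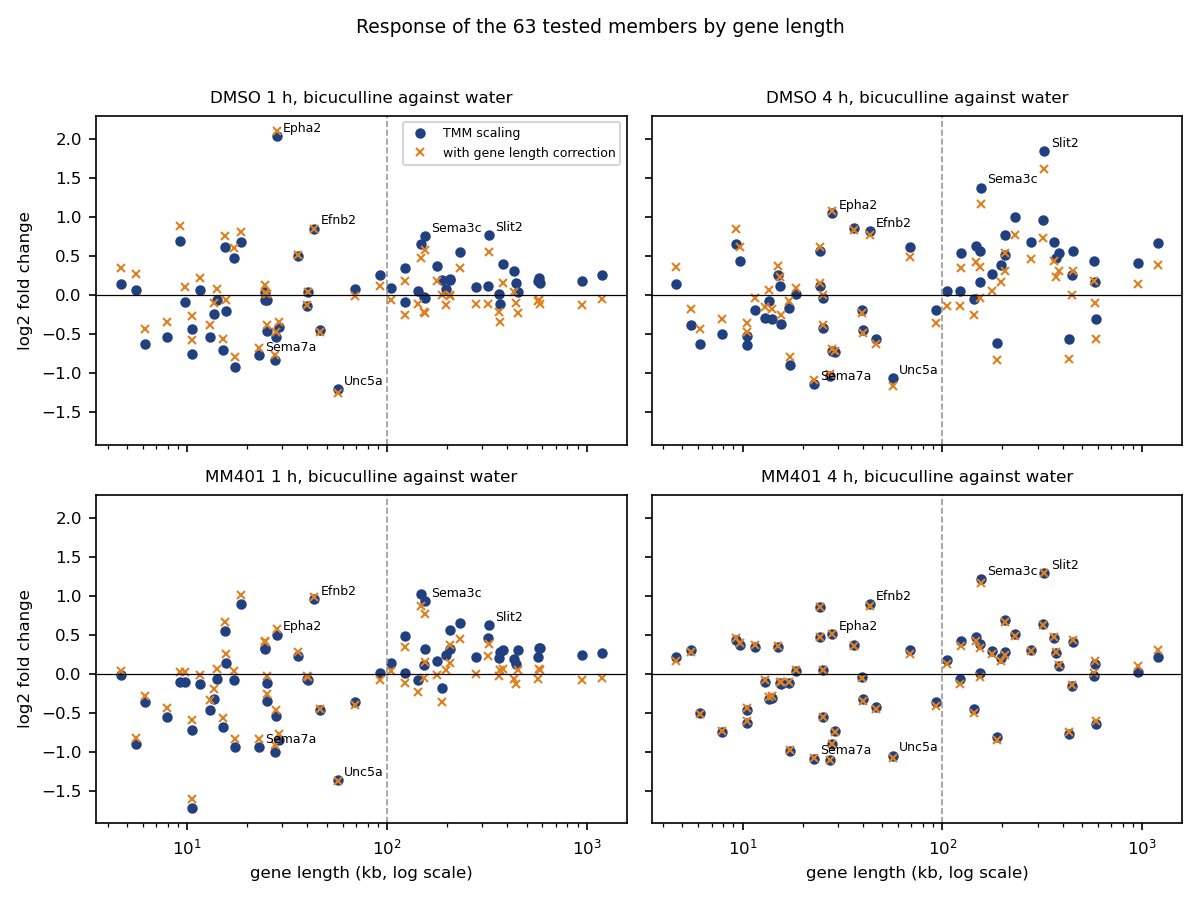
Log2 fold change of bicuculline against water (vertical axes) by gene length in kb (log scale) for the 63 tested members in 4 comparisons. Blue points use TMM scaling and orange crosses also remove the trend with gene length, the dashed line marks 100 kb, and most long members lie above 0 in DMSO at 4 h by either measure.

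The course from 1 h to 4 h of bicuculline was compared without water libraries, so it also holds any change with time alone. In DMSO, 27 members differed, 19 higher and 8 lower at 4 h (30.2% and 12.7%). Of all genes 34.2% differed (19.1% higher and 15.2% lower). Under MM401, 25 members differed, 16 higher and 9 lower (25.4% and 14.3%), against 33.6% of all genes (17.5% and 16.0%). Of the members, 13 were higher at 4 h in both pretreatments (20.6% of those tested), against 12.9% of all genes. These made up 68.4% of the 19 and 81.2% of the 16, where all genes gave 67.6% and 73.5%. The 13 were Efna5, Epha3, Epha5, Epha7, Ephb4, Ephb6, Sema3c, Sema3d, Sema4c, Sema5a, Slit2, Unc5b and Unc5c. With the shallow library Efna5, Epha7, Sema5a and Unc5c lost the call under MM401, and without replicate 3 of MM401 with bicuculline at 1 h Efna5 and Epha7 did. Another 6 were lower at 4 h in both (9.52% of those tested), against 11.3% of all genes, and made up 75.0% of the 8 and 66.7% of the 9, where all genes gave 74.5% and 70.6%. The 6 were Ephb1, Ephb2, Ephb3, Plxnd1, Sema4d and Slit3, of which Slit3 lost the DMSO call with the shallow library. None was called in opposite directions. With plain library totals the split was 17 higher and 12 lower in DMSO (27.0% and 19.0%, all genes 11.9% and 18.5%) and 20 and 9 under MM401 (31.7% and 14.3%, all genes 21.2% and 11.5%). Efnb2 gave -0.03 ± 0.07 in DMSO (95% interval -0.17 to 0.11) and 0.01 ± 0.07 under MM401, and did not pass.

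MM401 itself was compared with DMSO in each condition for which both were at hand. No member passed in water at 4 h, where 0.0826% of all genes did, in bicuculline at 1 h (0.00590%) or in bicuculline at 4 h (0%), by edgeR's quasi-likelihood test. At an unadjusted p under 0.05 there were 10, 3 and 4 members (15.9%, 4.76% and 6.35%), against 12.9%, 3.18% and 7.72% of all genes. DESeq2 called 1, 0 and 0 members, against 0.955%, 0.0826% and 0.0413% of all genes. For Slit2 under MM401 against DMSO the 95% interval of the log2 difference ran from -0.01 to 0.67 in water and from -0.53 to 0.08 in bicuculline at 4 h. For Efnb2 these intervals ran from -0.20 to 0.12 and from -0.11 to 0.17. The difference of the 4 h responses, MM401 minus DMSO, passed for no gene (0% of all genes) by edgeR, with 11 members (17.5%) at an unadjusted p under 0.05, against 2552 of all 16959 genes. DESeq2 called 5 members (7.94%) in this difference, against 2.57% of all genes. They were Efna5, Plxna4, Robo1, Sema3e and Slit2, with Slit2 at -0.58 (DESeq2 adjusted p = 0.0459). By edgeR the difference was -0.56 ± 0.22 for Slit2 (95% interval -1.02 to -0.09, adjusted p = 0.268), 0.08 ± 0.10 for Efnb2 and 0.01 ± 0.14 for Unc5a.

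The counts of 0 in water and in the difference of responses turned on a single control library, while those in bicuculline stayed at 0 whichever library was left out. Replicate 1 of DMSO with water had 62.2% of its counts in genes of at least 100 kb, and the other libraries of its group had 58.0% and 56.9%, while those of MM401 with water at 4 h had 61.3% and 61.4%. Without replicate 1, 9 of 62 tested members (14.5%) were higher under MM401 in water at 4 h, against 4.43% of all genes (Efna5, Epha10, Plxna4, Robo1, Robo2, Sema3e, Slit1, Slit2 and Unc5b), with Slit2 at 0.56 ± 0.13 (adjusted p = 0.0172). The difference of the 4 h responses, MM401 minus DMSO, was then below 0 for 10 members (16.1%), against 6.79% of all genes (Efna5, Epha3, Epha6, Plxna4, Robo1, Robo2, Sema3e, Slit1, Slit2 and Unc5d), with Slit2 at -0.78 ± 0.17 (adjusted p = 0.0106). All of these but Epha10 and Unc5b are at least 100 kb long. The part of the long-gene share in these differences was not tested.

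**Figure D5:**
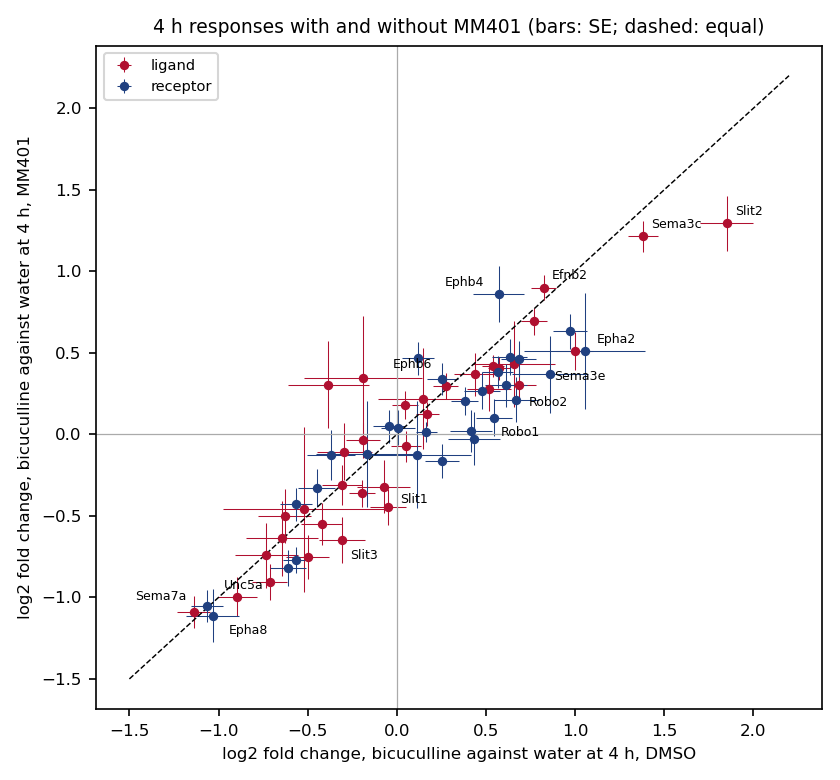
Log2 fold change of bicuculline against water at 4 h in DMSO (horizontal) and under MM401 (vertical) for the 63 tested members, with SE bars, ligands in red and receptors in blue. The dashed line marks equal responses; Slit2 lies at 1.85 and 1.29, and Unc5a at -1.07 and -1.05.

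Between 1 h and 4 h of water under MM401, 1 member passed, against 0.867% of all genes (0.265% higher and 0.601% lower). Sema5a had 194, 181 and 191 CPM at 1 h and 235 and 229 CPM at 4 h (0.30 ± 0.07, adjusted p = 0.0347), a call that was lost in 7 of 13 alternatives, among them leaving out any 1 library of either group.

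Of the 94 other genes listed for guidance signalling (co-receptors, other ligands and cytoplasmic transducers), 93 were tested. The list was written with earlier results of these data known, and the part of gene length and scaling in its splits was not tested. In DMSO 40 were higher and 12 lower at 1 h (43.0% and 12.9%), where 3396 and 4161 of all 16959 genes were. At 4 h 47 were higher and 16 lower (50.5% and 17.2%), against 23.7% and 25.5%. Under MM401 37 were higher and 13 lower at 1 h (39.8% and 14.0%), against 18.1% and 21.8%, and 32 and 21 at 4 h (34.4% and 22.6%), against 23.0% and 21.7%. Omg, an inhibitor of neurite growth that binds the Nogo receptor, rose by 1.45 ± 0.09 at 1 h and by 0.98 ± 0.09 at 4 h in DMSO, while the Nogo receptor gene Rtn4r fell by 0.93 ± 0.07 and by 0.46 ± 0.07. Cxcl12, a chemokine that guides migrating cells, rose by 0.85 ± 0.17 and by 1.48 ± 0.17. Rnd3 rose by 1.27 ± 0.09 at 1 h and Rnd1, which binds plexins, fell by 1.41 ± 0.11. Tiam2, an activator of Rac, rose by 1.19 ± 0.08 at 4 h. Draxin, a ligand of Dcc, fell by 0.74 ± 0.12 at 1 h and was higher by 0.43 ± 0.11 at 4 h.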

How the data were processed

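Nascent RNA was counted per gene in 21 libraries, and the values are the whole-number counts the authors deposited. Per the submitters' processing notes, the tools included Bowtie2, UMI-tools, featureCounts, deepTools and DESeq2 and the build was mm10; their roles, versions and the use of strand are not given in the sources used here. Per the file headers the table gives each gene's position and length, and 412 genes list more than 1 position, none of them a member.

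Members and gene lists were chosen with earlier results of these data known. Libraries were grouped by their labels, and the shallow library (0.503% of the median total) was left out, which left 20 libraries in 7 groups. Counts were tested with edgeR 4.0.16 in R 4.3.3 (quasi-likelihood test, TMM scaling, 1 mean per group, genes kept by filterByExpr at its settings of 10 counts and 15 in total). P-values were adjusted by Benjamini-Hochberg over all 16959 genes tested, and an adjusted p under 0.05 was called. Every adjusted p in the text is from this fit unless DESeq2 1.42.0 is named. The SE is the absolute log2 fold change over the square root of F. CPM is a count over the library's total in tested genes multiplied by its TMM factor. Members with values were the called ones with the largest changes, up to 8 in each direction per comparison, at 1 CPM or more, and up to 3 for other pathway genes; members named beside them to cover each family were chosen after their values were seen. The fit was tested on simulated data.

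Replicates of a group differed by more than sampling noise, with a chi-square per degree of freedom of 6.40 to 82.7, so none was counted as a repeat of another. Depth of at least 49886348 counts per library leaves counting error small against this spread for all but the lowest members. Alternatives were all 21 libraries, RLE scaling, plain library totals, a gene length correction, no filter, the replicate number as a block, only the groups compared, DESeq2, and each library left out in turn. Same-numbered libraries deviated together (correlations of 0.107 to 0.172 in all 3 pairs) between MM401 and DMSO in bicuculline at 4 h, where the labels do not say what the number marks; none of the other 9 pairs of groups compared met that in every pair. A result on 1 other pathway gene is not reported here.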

Additional observations from a re-analysis of the deposited data

Results flagged for a closer look

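In 27 members the DMSO libraries with bicuculline differed between 4 h and 1 h (edgeR's quasi-likelihood test, adjusted p of at most 0.0437). Of the tested members 30.2% were higher and 12.7% lower at 4 h, against 19.1% and 15.2% of all genes. DMSO had no water at 1 h, so a change in the response to bicuculline and a change with time alone cannot be told apart. Values are log2 differences, 4 h minus 1 h. Higher at 4 h among the ligands were Slit2 (1.08), Sema3c (0.62), Efna5 (0.58), Sema3d (0.56), Sema5a (0.53), Sema4c (0.52), Sema3e (0.44), Sema3a (0.33) and Sema6a (0.19). Higher at 4 h among the receptors were Ephb6 (0.96), Epha3 (0.85), Epha5 (0.67), Epha7 (0.61), Unc5c (0.58), Unc5b (0.54), Ephb4 (0.53), Robo2 (0.42), Plxna2 (0.30) and Plxnc1 (0.20). Lower at 4 h were the ligands Slit3 (-0.47), Sema4d (-0.45) and Sema7a (-0.37) and the receptors Epha2 (-0.99), Ephb1 (-0.87), Ephb2 (-0.81), Ephb3 (-0.68) and Plxnd1 (-0.49). The Epha2 call was lost without replicate 2 of DMSO with bicuculline at 4 h. The Ephb4 call was lost without replicate 1 of DMSO with bicuculline at 1 h or replicate 3 of DMSO with bicuculline at 4 h. The Plxnc1 call was lost without replicate 1 of DMSO with bicuculline at 1 h. The Robo2 call was lost without replicate 3 of DMSO with bicuculline at 1 h. The Sema3a call was lost without replicate 1, 2 or 3 of DMSO with bicuculline at 1 h or replicate 1 or 2 of DMSO with bicuculline at 4 h. The Sema6a call was lost without replicate 1 or 3 of DMSO with bicuculline at 1 h or replicate 2 of DMSO with bicuculline at 4 h. Including the shallow library lost the calls of Plxna2, Plxnc1, Robo2, Sema3a, Sema6a and Slit3. RLE scaling lost Sema3a and Sema6a, plain library totals and the fit of only the groups compared each lost Plxnc1 and Sema6a, and no filter lost Sema3a.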

How the results depend on the processing

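Of the 97 member values picked by the rule on largest changes, 87 kept their direction and call in every alternative run, 10 lost the call in at least 1, and 0 reversed. Besides those given in the report, the calls of Robo1 at 1 h in DMSO, Sema6a at 1 h under MM401 and Epha4 and Slit1 between 1 h and 4 h under MM401 were lost with all 21 libraries. Efna2 at 1 h under MM401 was lost without replicate 3 of MM401 with bicuculline at 1 h. Epha4 and Slit1 between times under MM401 were also lost without replicates 2 and 1 of that group, in that order. Calls of other members were lost too, and those lost with plain library totals or the length correction are named in the report. Including the shallow library lost 5 of 27 member calls at 1 h and 13 of 47 at 4 h in DMSO, and 13 of 34 and 6 of 35 under MM401.

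With all 21 libraries, 20 members passed at 1 h and 15 between 1 h and 4 h under MM401, and over all genes 3745 in place of 5805 passed between times in DMSO and 3646 in place of 5691 under MM401. For MM401 with water at 4 h against 1 h, 0 members passed with all 21 libraries or RLE scaling, 3 with plain library totals, the length correction, only the groups compared or DESeq2, and 2 without the filter. Over all genes this count was 147, and ran from 14 to 328. MM401 against DMSO called 1 member by DESeq2 in water at 4 h and 5 in the difference of responses. Over all genes DESeq2 called 162 in place of 14 in water, 14 in place of 1 in bicuculline at 1 h, 7 in place of 0 at 4 h and 436 in place of 0 in the difference of responses; without replicate 1 of DMSO with water edgeR called 1272 in water and 1551 in the difference. The cause was not tested.

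Leaving out each library in turn gave 25 to 36 members at 1 h and 39 to 44 at 4 h in DMSO, 24 to 35 and 25 to 33 under MM401, and 23 to 27 and 21 to 25 between times. Over all genes the same fits called 36.9% to 46.5% and 43.0% to 48.2% in DMSO, 32.5% to 38.7% and 31.8% to 41.3% under MM401, and 28.8% to 31.3% and 27.3% to 31.9% between times. For MM401 against DMSO in water 0 to 9 members passed (all genes 0% to 7.50%), for MM401 water over time 0 to 2 (0.0810% to 0.826%), and for the difference of responses 0 to 10 (0% to 9.15%).

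With the replicate number as a block, 30 and 47 members passed at 1 h and 4 h in DMSO, 39 and 37 under MM401, 27 and 25 between times, and 2 for MM401 water over time. Over all genes the block called 47.4%, 51.8%, 43.0%, 46.5%, 36.7%, 36.1% and 1.01% in the same order. MM401 against DMSO, and the difference of responses, gave 0 members with the block. Of the 10 pairs of groups, only MM401 and DMSO in bicuculline at 4 h had every same-numbered correlation at 0.107 or above. The correlations between bicuculline at 4 h and 1 h in DMSO ran from 0.0898 to 0.199. Whether the numbers pair the samples is not known from the labels. Between MM401 and DMSO in bicuculline at 4 h no member passed with or without the block, so calls there cannot show an effect of pairing.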
